A study of Mus musculus with 2 samples.

Results

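The fatty acid synthesis genes are 10 genes that act in making fatty acids from citrate and in switching that pathway on: Srebf1, Thrsp, Pnpla3, Acly, Acaca, Fasn, Elovl6, Scd1, Scd2 and Me1. They were picked by symbol, by a rule that holds no measured value, although earlier results of these data were known. Each was matched through GENCODE M21 to 1 Ensembl identifier, so that all 10 were found among the 37315 identifiers counted. Their messenger RNA was sequenced in whole lung of C57BL/6 mice, an inbred strain, in 1 control library and 1 library from animals exposed to PM2.5, airborne particles fine enough to reach the alveoli. The strain, the tissue and the number 12 with a W in the title, which the labels leave unexplained, are shared by both libraries. The labels give neither age, sex, dose and route nor how many animals were pooled, and they name no altered allele.

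De novo fatty acid synthesis turns citrate exported from mitochondria into acetyl-CoA, then malonyl-CoA and palmitate, which is elongated, desaturated and stored as triglyceride or built into membranes. The sterol-regulated factor SREBP-1c, a product of Srebf1, and the carbohydrate-responsive factor ChREBP, the product of Mlxipl, are known to switch on most of these genes in liver and fat. In the lung, alveolar type 2 cells are known to use the pathway to make the phospholipids of surfactant, and adipocytes around the airways and in the mediastinum also carry it.

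Pnpla3 and Thrsp were more than 10-fold higher in the PM2.5 library, Elovl6 and Scd1 were higher by less than 2-fold, and Fasn was lower. The core enzymes Acly and Acaca and the desaturase Scd2 had ratios under 1 with each scaling tried, whereas Srebf1 and Me1 were close to equality. Ratios are of CPM, a gene's count as a share of its library's total after TMM scaling. With 1 library per group there is no replicate check and no test. Each ratio carries an exact 95% interval that covers counting error only, and it describes these 2 libraries, not the exposure. A gene was called where its ratio reached 1.5-fold in either direction and the interval left out 1. Of the 10 genes, 4 were called higher and 1 lower. Over the 14518 genes whose mean over both libraries was 1 CPM or more, 14.9% were called higher and 19.1% lower by the same rule.

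The control library totalled 62788045 counts and the PM2.5 library 57435027. Markers of lung cell types were abundant in both libraries. The surfactant gene Sftpc stood at 14437 CPM (control) and 18643 CPM (PM2.5), and the club cell gene Scgb1a1 at 19383 CPM and 29906 CPM. Ager, of alveolar type 1 cells, stood at 2381 and 1695 CPM, and the endothelial cadherin Cdh5 at 1511 and 496 CPM, 3.05-fold lower with PM2.5. The log2 ratio of all genes tested had a median of -0.09 and quartiles of -0.48 and 0.33. Scaling by library totals or by the upper quartile in place of TMM raised every log2 ratio, and the median of all genes by 0.23 and 0.14, and the share of calls that were higher went from 43.8% to 70.6% and 59.7%. Of all genes, 23.8% were then called higher and 9.9% lower with library totals, and 19.5% and 13.2% with the upper quartile. With the trend of ratios with merged exon length removed, the shares were 14.3% higher and 16.6% lower. They were 8.31% and 21.1% where a mean of 10 CPM was required, and 7.25% and 6.04% at 2-fold. Ratios near 1 therefore carry no firm direction.

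Upstream sequence is shown for the pair with the largest ratios, Thrsp and Pnpla3, and for Fasn, the gene called lower, since these mark the ends of the range. The bases are from RefSeq on GRCm38.p6, read 5′ to 3′ on the gene's strand, and end before the first base that RefSeq or GENCODE counts as transcribed. Capitals mark matches, on either strand, to the CCAAT box or the GC box spelled out in the next paragraph. Thrsp lies on the minus strand (chr7:97417731-97417800), Pnpla3 on the plus strand (chr15:84167566-84167815) and Fasn on the minus strand (chr11:120824548-120824797).
Thrsp: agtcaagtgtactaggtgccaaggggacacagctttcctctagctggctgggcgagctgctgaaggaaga
Pnpla3: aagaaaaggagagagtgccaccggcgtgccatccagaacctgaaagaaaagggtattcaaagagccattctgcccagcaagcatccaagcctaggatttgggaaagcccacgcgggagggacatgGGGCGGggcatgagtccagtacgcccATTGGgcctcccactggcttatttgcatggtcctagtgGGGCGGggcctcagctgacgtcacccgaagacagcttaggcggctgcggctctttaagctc
Fasn: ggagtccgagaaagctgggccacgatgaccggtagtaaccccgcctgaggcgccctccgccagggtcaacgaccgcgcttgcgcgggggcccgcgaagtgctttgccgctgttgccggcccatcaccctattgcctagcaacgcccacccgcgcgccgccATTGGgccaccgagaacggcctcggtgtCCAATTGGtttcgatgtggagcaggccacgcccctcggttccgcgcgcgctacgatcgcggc

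The Pnpla3 stretch of 250 bases held 1 match to the CCAAT box and 2 to the GC box, and the Fasn stretch held 3 matches to the CCAAT box, a pair of which overlap because they read in opposite directions. Only 70 bases are shown for Thrsp, because GENCODE starts its transcript 180 bases upstream of the RefSeq start, and these 70 held no match. The RefSeq window of 250 bases upstream was available for 8 of the 10 genes, in 11 windows, since Srebf1 has 3 starts and Me1 has 2. Scd1 and Scd2 had no entry. The CCAAT box (CCAAT) was found in windows of Fasn, Me1, Pnpla3, Srebf1 and Thrsp, which is 6 of the 11 windows, against 33.8% of 32851 windows of the same length. The GC box (GGGCGG) was in 5 of the 11, those of Acly, Me1, Pnpla3 and Srebf1, against 32.7%. No window of these genes held the palindromic E-box (CACGTG), found in 6.02% of all windows, the sterol regulatory element as TCACNCCAC, found in 1.05%, or a TATA box (TATAAA), found in 12.4%. A match is a run of letters and not a shown binding site, and the lack of one says only that these letters are not in that window.

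Srebf1 encodes the precursor of SREBP-1, the transcription factor that drives the enzymes of the pathway. It lies on chromosome 11 (60199089 to 60222581, minus strand). It had 6640 counts without exposure and 6901 with it, which is 115 and 111 CPM. The ratio of 0.969 (0.936 to 1.002) did not differ from 1 beyond counting error, and it moved above 1 with library totals, the upper quartile or the length trend removed. Counting does not separate its isoforms, so SREBP-1a and SREBP-1c cannot be told apart, and 3.11% of its exon bases are shared with Rai1 on the other strand or a microRNA gene.

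Thrsp encodes Spot 14, a small protein abundant in lipogenic tissue that acts on acetyl-CoA carboxylase. It lies on chromosome 7 (97412938 to 97417730, minus strand) and shares no bases with another gene. The control library held 353 counts, or 6.09 CPM, and the PM2.5 library 4682, or 75.3 CPM. That is 12.4-fold higher (95% counting interval 11.1 to 13.8), the 38th highest ratio of 14518 genes. Mid1ip1, the gene of the related protein that partners with Spot 14, had a ratio of 0.845 (0.816 to 0.875) on 6747 and 6118 counts.

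Pnpla3 encodes adiponutrin, a lipid droplet protein that binds triglyceride and whose gene is a known target of SREBP-1c and ChREBP. It lies on chromosome 15 (84167837 to 84187236, plus strand). Its 32 control counts stood against 597 with PM2.5, 0.552 and 9.60 CPM. The ratio was 17.4 (12.2 to 25.7), the 17th highest of all genes tested and the largest of the 10. Pnpla3 reached the mean of 1 CPM only through the PM2.5 library, so its call could go no other way. A further gene on the same strand, Gm49513, shares 6.78% of its exon bases.

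**Figure D1:**
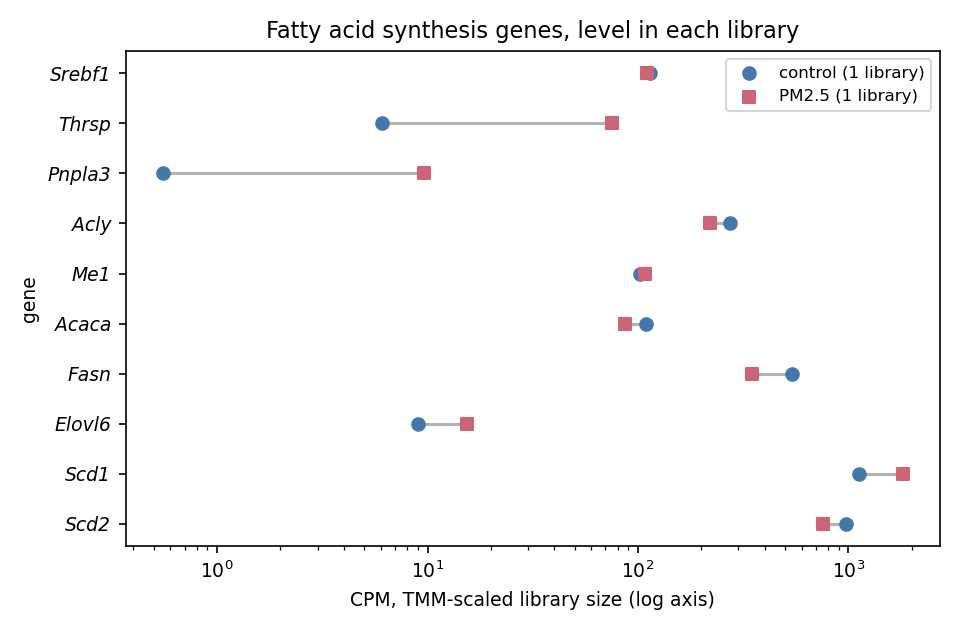
Level of each of the 10 genes in the control library (circles) and the PM2.5 library (squares), in CPM on a log axis, with a line joining the 2 values of a gene. Thrsp and Pnpla3 show the long lines, from 6.09 to 75.3 and from 0.552 to 9.60 CPM, while Srebf1 and Me1 nearly coincide.

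The enzymes that supply the substrates differed little. Acly encodes ATP citrate lyase, which splits citrate into cytosolic acetyl-CoA (chromosome 11, 100476353 to 100528000, minus strand). Its 15943 control counts (275 CPM) stood against 13634 with PM2.5 (219 CPM), and the ratio of 0.797 (0.779 to 0.816) is less than 1.5-fold. Me1 encodes cytosolic malic enzyme, a source of the NADPH that the synthase uses up (chromosome 9, 86581371 to 86695953, minus strand). Its 5950 and 6692 counts, or 103 and 108 CPM, gave a ratio of 1.05 (1.01 to 1.09). Neither of these was called.

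Acaca and Fasn encode the enzymes that commit acetyl-CoA to fatty acids and build palmitate. Both lie on chromosome 11, with Srebf1 and Acly, at 84129672 to 84401651 (plus strand) and 120805846 to 120824547 (minus strand). Acaca, acetyl-CoA carboxylase 1, had 6303 and 5387 counts, or 109 and 86.6 CPM, which gave a ratio of 0.797 (0.768 to 0.826). Fasn, fatty acid synthase, fell from 31171 counts in the control library to 21767, or from 538 to 350 CPM. It was 1.54-fold lower (1.51 to 1.56) and was the gene of the 10 called lower. Its log2 ratio of -0.62 became -0.39 when scaled by library totals and -0.48 by the upper quartile, and the call was lost with each. Both genes have many exon bases, 17074 and 10947 when merged over their annotated transcripts. Genes with more exon bases had lower ratios over the whole table. The trend with length lay 0.32 and 0.26 below the median of all genes, on the log2 scale, at the lengths of Acaca and Fasn. With that trend removed the log2 ratios were -0.0065 for Acaca and -0.36 for Fasn, and Fasn was not called.

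Elovl6 encodes the elongase that takes palmitate to stearate, a known SREBP-1c target (chromosome 3, 129532355 to 129638495, plus strand). Its 524 control counts compare with 962 after exposure, 9.04 and 15.5 CPM, and it was 1.71-fold higher (1.54 to 1.91).

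The stearoyl-CoA desaturases Scd1 and Scd2, which put the double bond into stearate and palmitate, had ratios on opposite sides of 1. Scd1 (chromosome 19, 44394455 to 44407879, minus strand) had 65377 control counts against 112747 with PM2.5, which is 1128 and 1813 CPM. It was 1.61-fold higher (1.59 to 1.62). Scd2 (44293674 to 44306864, plus strand) had 56591 and 47203 counts, 976 and 759 CPM, and a ratio of 0.777 (0.768 to 0.787), too small a difference to be called. In the control library there were 0.866 counts of Scd2 for each of Scd1 (0.856 to 0.875), and in the PM2.5 library 0.419 (0.414 to 0.423). This count ratio within a library needs no scaling.

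The 4 Scd genes lie within 205 kb of chromosome 19 in the order Scd3, Scd2, Scd4 and Scd1. Scd4 was called higher as well, 1.69-fold (1.25 to 2.30), on 70 and 127 counts, but not where the interval itself had to lie beyond 1.5-fold or the mean had to reach 10 CPM. Scd3, below a mean of 1 CPM and named after its values were seen, had 7 and 44 counts, a ratio of 5.86 (2.62 to 15.4). Scd2, the most abundant of the cluster after Scd1, was thus the member of the cluster with a ratio under 1, which held under each scaling tried. The coding sequences of Scd1 and Scd2 are 89.6% identical, with a longest identical run of 147 bases, and those of Scd1 and Scd3 are 90.4% identical, with a run of 185 bases. Reads are 125 bases long, so some pairs can match more than 1 gene, and the low counts of Scd3 are uncertain beside those of Scd1.

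**Figure D2:**
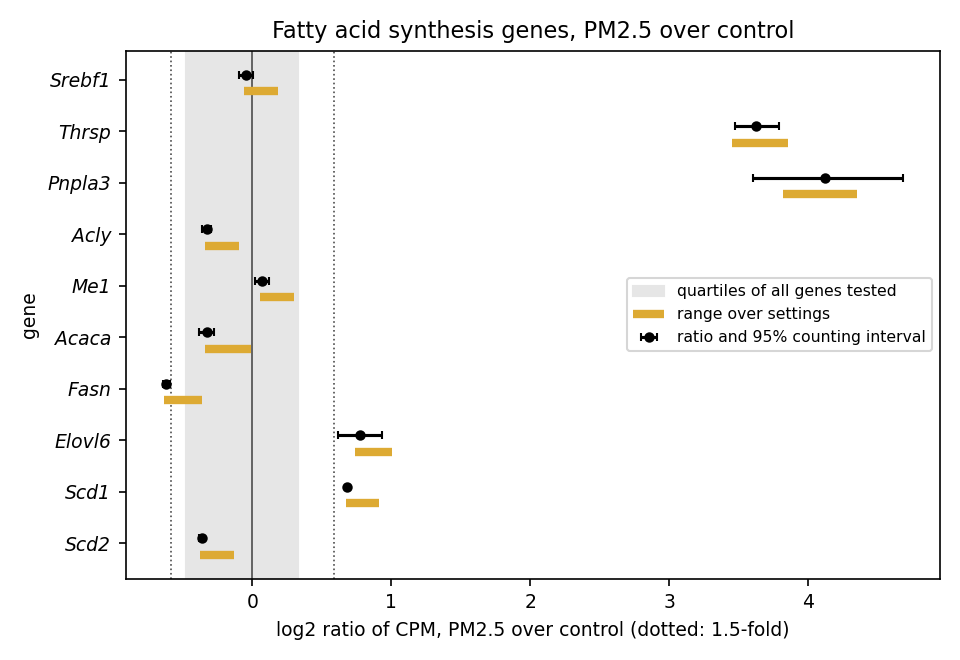
Log2 ratio of CPM, PM2.5 over control, for each of the 10 genes (points) with the 95% counting interval (bars), the range over the scalings, the thinned library and the removed length trend (thick lines), the quartiles of all genes tested (grey) and the 1.5-fold limits (dotted). Thrsp and Pnpla3 lie at 3.63 and 4.12, far to the right of the other 8, and the thick line of Fasn crosses the 1.5-fold limit.

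Levels of different genes were compared per kilobase of exon, merged over a gene's annotated transcripts, which can exceed the length of any single transcript. By this measure Scd1 and Scd2 ranked first and second of the 10 in both libraries. They stood at 231 and 179 CPM per kb without exposure and 371 and 139 with it. Acly had rank 3 in both, at 52.1 and 41.5 CPM per kb. Fasn had rank 4 in the control library, at 49.1 CPM per kb, and rank 5 with PM2.5, at 32.0. Thrsp moved from rank 8, at 2.78 CPM per kb, to rank 4, at 34.4, so that in the PM2.5 library it stood above Fasn, Me1 and Srebf1. Among all genes tested, the level of Thrsp per kb was at percentile 31.5 without exposure and 91.5 with it, and that of Pnpla3 at 4.63 and 53.7. Elovl6 was at percentiles 18.8 and 27.3 and was the lowest of the 10 in the PM2.5 library, at 2.40 CPM per kb.

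The 10 genes summed to 3258 CPM (control) and 3546 CPM (PM2.5), which is 1.09 times as much. Scd1 took 34.6% of the control counts of the 10 genes and 51.1% of those with PM2.5, while Scd2 went from 30.0% to 21.4% and Fasn from 16.5% to 9.87%. Thrsp and Pnpla3, with the largest ratios, took 2.12% and 0.271% of the PM2.5 counts. The median log2 ratio of the 10 genes was 0.01, against -0.09 over all genes tested, and without Thrsp and Pnpla3 it was -0.19.

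**Figure D3:**
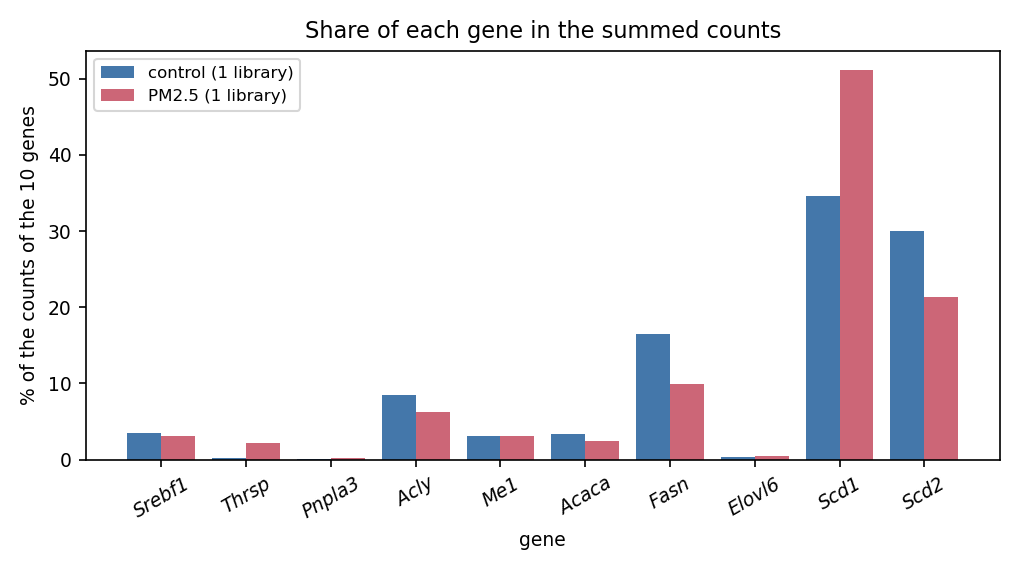
Share of each gene in the summed counts of the 10 genes, in percent, with 1 bar per library. Scd1 goes from 34.6% to 51.1%, and Scd2, Fasn and Acly have smaller shares in the PM2.5 library.

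Other genes of the pathway, 49 in a list chosen with earlier results of these data known, were called in both directions. Of the 46 that reached a mean of 1 CPM, 7 were called higher, a share near the 14.9% of all genes, and 5 lower, against 19.1% of all genes. Their median log2 ratio was -0.07. With library totals 11 were higher and 2 lower, against 23.8% and 9.9% of all genes.

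Among 13 regulators, 1 was higher and 3 lower, against 14.9% and 19.1% of all genes tested. Mlxipl, the gene of ChREBP, was 3.75-fold higher (3.04 to 4.67) on 110 and 443 counts. A required mean of 10 CPM removes it. Scap, which escorts SREBP out of the endoplasmic reticulum, was 1.68-fold lower (1.59 to 1.76), with 3929 and 2517 counts, a call lost with library totals and with the length trend removed. Mbtps1, the site-1 protease that cuts SREBP in the Golgi, was 1.96-fold lower (1.90 to 2.02). Rxra, the partner of the liver X receptors, was 1.99-fold lower (1.92 to 2.06). The receptors themselves, Nr1h2 and Nr1h3, had ratios of 0.928 and 0.940.

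Substrate and NADPH supply held no called gene: none of 4 and none of 3. Of all genes tested, 14.9% were called higher and 19.1% lower. The most abundant of the 2 supply lists were the citrate carrier Slc25a1, with a ratio of 1.04 (1.001 to 1.09), and Pgd of the pentose phosphate pathway, with 1.06 (1.03 to 1.09). Acss2, which makes acetyl-CoA from acetate, had the largest ratio of these 7, at 1.31 (1.24 to 1.39), and was called higher with library totals and with the length trend removed. In the elongation cycle, 1 of 8 measured genes was called, the elongase of polyunsaturated fatty acids Elovl5, 1.55-fold lower (1.51 to 1.59) and no longer called with library totals or the upper quartile. Elovl3, an elongase typical of brown fat and skin and named after its values were seen, had 0 control counts and 25 with PM2.5, at least 7.77-fold higher when the control is set to a floor of 3 counts in that library and the 25 are taken as exact. With counting error in both libraries the exact interval of the ratio starts at 5.862. Beside Scd4, no desaturation gene was called. The front-end desaturase Fads2 had a ratio of 0.688. Cyb5a had a ratio of 1.41 (1.38 to 1.45) and was called higher with library totals and the upper quartile.

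In mitochondrial fatty acid synthesis, a separate bacterial-type pathway that makes the precursor of lipoic acid, 2 of 6 measured genes were higher and none lower. Of all genes tested, 14.9% were higher and 19.1% lower. The 2 higher genes were the reductase Mecr at 1.96-fold (1.73 to 2.23) and the acyl carrier protein Ndufab1, at 1.62-fold (1.53 to 1.71). Ndufab1 is also a subunit of respiratory complex I. A required mean of 10 CPM removes Mecr. In triglyceride assembly, 3 of 7 genes were higher and 1 lower, beside the same shares of all genes. Dgat2, which adds the last acyl chain and is known to work with newly made fatty acids, had 1151 and 2657 counts and was 2.15-fold higher (2.01 to 2.31). Agpat2, the acyltransferase of adipocytes, was 1.87-fold higher (1.77 to 1.97) and Dgat1 1.68-fold (1.56 to 1.80). The phosphatidate phosphatase Lpin1 was 1.56-fold lower (1.48 to 1.65), a call lost with library totals, the upper quartile, the length trend removed and the interval required to lie beyond 1.5-fold.

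Most markers of fat were higher in the PM2.5 library. Of 12 markers of adipocytes in general, 11 were measured, 10 of them called higher and 1 lower. Of all genes tested, 14.9% were called higher and 19.1% lower. The 12 markers summed to 210 CPM (control) and 782 CPM (PM2.5). The most abundant were Car3, a carbonic anhydrase of fat and muscle, at 37.3 and 224 CPM, and Cfd, adipsin, at 35.6 and 207 CPM. The adipokine Adipoq, a defining marker, had 379 and 2582 counts, 6.35-fold higher (5.70 to 7.09), and the lipase Lipe was the marker called lower, at 1.60-fold, though not with library totals, the upper quartile or the length trend removed. Lep (leptin), Adig and Ucp1 were below 1 CPM in the control library, at 0.138, 0.759 and 0.138 CPM. These 3 were measured only through the PM2.5 library, so their calls could go no other way. All 5 markers of brown adipocytes were higher, summing to 6.50 CPM (control) and 111 CPM (PM2.5). Ucp1, the uncoupling protein, had 8 and 4855 counts, and Cidea 77 and 1052. No adipocyte marker was at 0 in either library. Of the fat markers, only Cidea at 12.7 (10.1 to 16.3) and Retn, resistin, at 11.4 (9.26 to 14.2) had ratios near the 12.4 of Thrsp. Those of Adig at 7.29, Adipoq at 6.35 and Fabp4 at 6.08 were lower. So were those of Car3 at 6.01, Cfd at 5.82 and the brown marker Cox8b at 5.29. Far smaller ratios were those of the defining markers Plin1 at 4.58 and Cidec at 2.01, and of Plin4 at 1.73. The brown markers Cox7a1 and Dio2 had 2.82 and 2.02. Lep, at 32.2 (16.1 to 75.2), and Ucp1 had larger ratios than Thrsp. Like Pnpla3, they were measured only through the PM2.5 library. The filter fixed the direction and a least size of their ratios, though not the size reached, so they cannot be fairly compared with that of Pnpla3. The part that fat in the sampled tissue has in the ratios of the 10 genes was not tested. In whole tissue, fewer cells of a type and less RNA per cell cannot be told apart.

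Liver also expresses Thrsp and Pnpla3. Of 8 hepatocyte markers, 7 were below a mean of 1 CPM. The albumin gene Alb had 31 and 51 counts, Ahsg had 22 and 88, and Fgb was at 0 in both. Apoc3 and Ttr were at 0 in the control library and had 2 and 1 counts with PM2.5. Cyp2e1, which fat and airway also express, was the measured one, at 15.5 and 50.1 CPM. Of 11 alveolar type 2 markers, 4 were called lower and none higher, against 19.1% and 14.9% of all genes tested. Their median log2 ratio was -0.09, the same to 2 decimals as over all genes. They summed to 28017 CPM (control) and 30033 CPM (PM2.5), set by Sftpc and by Sftpa1, at 3989 and 3750 CPM. The 4 lower genes included the lipid transporter Abca3 at 1.94-fold and the phosphate carrier Slc34a2 at 1.68-fold. The others were the transcription factor Etv5 at 1.57-fold and Lpcat1, which remodels surfactant phospholipid, at 1.57-fold. Of the 7 not called, Sftpc had a ratio of 1.29, Cxcl15 1.22, Sftpd 1.12 and Lamp3 0.988. Napsa had 0.981, Sftpa1 0.940 and Sftpb 0.722. With the upper quartile only Abca3 and Slc34a2 of the 4 lower genes were called. With library totals only Abca3 of them was, while Sftpc was then called higher. With the length trend removed Sftpb was called lower beside these 4 genes, so that 5 were lower and 0 higher, against 16.6% and 14.3% of all genes. At 2-fold none was called, and the remaining alternatives kept all 4. Of 8 alveolar macrophage markers, 1 was higher and 1 lower, against 14.9% and 19.1% of all genes tested. Their summed levels were 795 and 832 CPM. Marco was 3.57-fold higher (2.96 to 4.33), a call lost where a mean of 10 CPM was required. Mrc1 was 1.62-fold lower (1.56 to 1.69), a call lost with library totals, the upper quartile and the length trend removed. Siglecf, not called, had a ratio of 0.681. The most abundant members of the list, Chil3 and Car4, had ratios of 1.15 and 1.03. Whether these cell types bear on the 10 genes was not tested.

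**Figure D4:**
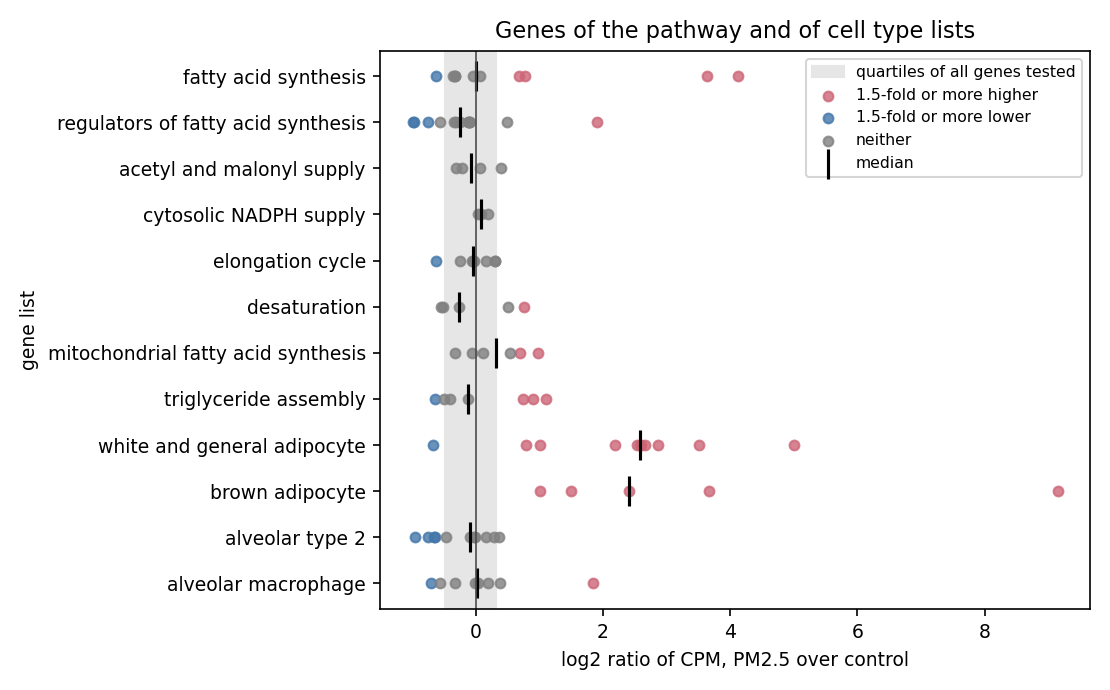
Log2 ratio of CPM, PM2.5 over control, for each measured gene (points) of the 10 fatty acid synthesis genes, the other pathway lists and 4 cell type lists, with each list's median (bars) and the quartiles of all genes tested (grey). The 2 adipocyte lists have medians of 2.59 and 2.40, and the pathway lists have medians within the quartiles.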

How the data were processed

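Per the labels' protocols, poly(A) RNA of whole lung was made into stranded KAPA libraries and sequenced in pairs of 125 bases. Per the submitters' processing notes, TopHat2 2.1.1, HTSeq 0.6.0 and mm10 were used; for annotation and strand setting the sources used here give nothing. What the authors deposited is the raw count of reads for each Ensembl gene. Symbols, coordinates and merged exon lengths came from GENCODE M21 (GRCm38), 1 pathway symbol through RefSeq's synonyms (H2-Ke6, listed as Hsd17b8). TMM factors (0.923 control, 1.08 PM2.5) were computed with edgeR 4.0.16 over all genes, and ratios carry exact Clopper-Pearson intervals. The interval and the floor of 3 counts (0.0517 and 0.0482 CPM) cover counting error only. The depth of over 57435027 counts makes intervals narrow for all but Pnpla3.

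Alternatives were DESeq2 1.42.0 size factors, library totals, the upper quartile, TMM computed after dropping the 100 genes with most counts, a filter of 10 CPM or none, other size rules (2-fold, or the interval bound beyond 1.5-fold), the deeper library thinned to the shallower total, and the lowess trend with exon length removed (statsmodels 0.14.6). The steps were tested on simulated data. The 10 genes and all lists were chosen with earlier results of these data known. Named were all 10 genes, every called pathway gene or else the most abundant of its list, and the 2 most abundant markers of each list. Further genes were named after their values were seen. Of the pathway these were Mid1ip1, Nr1h2, Nr1h3, Fads2, Cyb5a, Elovl3, Scd3 and Acss2. Of the fat markers they were Adipoq, Lipe, Lep, Retn, Adig, Fabp4, Plin1, Plin4, Cidec, Cox7a1, Cox8b and Dio2. Other markers so named were Ahsg, Alb, Fgb, Apoc3, Ttr, Cdh5, Ager, Marco, Mrc1, Siglecf and the alveolar type 2 markers beyond Sftpc and Sftpa1.

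BLAST 2.17.0 found processed pseudogenes or other copies with over 90% identity for Acaca, Elovl6, Me1, Scd1 and Scd2, whose counts are uncertain to that extent.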

Additional observations from a re-analysis of the deposited data

How the results depend on the processing

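Thrsp, Elovl6 and Scd1 were called higher under all alternatives that kept the 1.5-fold size, and so was Pnpla3 except with a mean of at least 10 CPM, which removes it. At 2-fold, 2 of the 10 genes were higher (Thrsp and Pnpla3) and 0 lower, and of the other pathway genes 2 were higher (Mlxipl and Dgat2) and 0 lower, against 7.25% and 6.04% of all genes. The lower call of Fasn was lost, leaving 0 genes lower, with library totals, the upper quartile and the length trend removed. The median log2 ratio of the 10 genes was 0.24 when scaled by totals and 0.15 by the upper quartile, and it changed sign to -0.00289 with DESeq2 size factors and -0.046 at 10 CPM. Other pathway genes were 11 higher and 2 lower with library totals, 3 lower with the upper quartile and with the length trend removed, and 4 higher at 10 CPM, against all-gene shares of 23.8%, 9.9%, 13.2%, 16.6% and 8.31% in that order. With the interval required to lie beyond 1.5-fold they were 6 higher and 4 lower, without Scd4 and Lpin1. Of 14517 genes with counts in both libraries, 1486 were higher and 2088 lower by that rule. The log2 ratio of Thrsp ranged from 3.45 to 3.86 and that of Pnpla3 from 3.82 to 4.35 over the scalings, thinning and length trend. Srebf1 ranged from -0.06 to 0.18. The count ratio of Scd2 to Scd1 stayed within its counting interval after thinning. Depth limits only Pnpla3, with 32 control counts, among the 10. No paired analysis was possible because each group has 1 library.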
